A study of Danio rerio with 19 samples.

Results

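The mitochondrial genome of whole zebrafish larvae was followed through the transcripts of all genes that the deposited count tables place on chromosome MT. These were 36 of the 26507 genes listed, made up of 13 protein genes, 2 rRNA genes and 21 tRNA genes. In each exposure the low dose was 100 ng/L and the high dose 1 µg/L, of atorvastatin (AVS), a statin, which blocks the step of sterol synthesis run by HMG-CoA reductase, or of afidopyropen (Afid), a compound used against sap-feeding insects. Control larvae were kept in a medium that the labels name ERM. Read counts of 15 libraries were used: 4 of AVS high, 4 of AVS low, 3 of Afid low and 4 of the control. Of the 4 Afid high libraries, only the fold changes and p-values of the authors' deposited table were used. The labels name no strain, genotype or age of the larvae, and give no origin (tank, clutch or pool) for a replicate, so the p-values measure spread between libraries alone, and this spread may be technical.

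The mitochondrial genome of vertebrates is a small circle that codes for core subunits of respiratory complexes I, III, IV and V and for the rRNAs and tRNAs that translate them. Each strand is copied as 1 long precursor, and the tRNAs that lie between most other genes are cut out of it, which frees the mRNAs and rRNAs. Most of the mRNAs then receive short poly(A) tails, and mRNA levels also depend on stability and on RNA-binding proteins of nuclear origin. All other subunits of these complexes, and the enzymes that copy, transcribe and translate mitochondrial DNA, are coded in the nucleus.

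Between 3.23% and 4.82% of the reads in genes came from the mitochondrial genome, with library totals between 8.63 and 18.6 M reads. The 95% Wilson intervals of these extremes were 4.81% to 4.84% in AVS high replicate 1 and 3.22% to 3.24% in AVS low replicate 2, which cover counting error only. The larvae showed markers of many tissues: skeletal muscle markers took 5.25% to 7.72% of reads, exocrine pancreas markers 0.200% to 1.71% and neuron markers 0.139% to 0.315%. Control replicate 2 had the lowest pancreas share (0.200%) and the lowest intestine share (0.040%, against 0.104% to 0.188% in the other libraries). Control replicate 4 had the highest share of cytosolic ribosomal protein genes, 10.9%, against 4.88% to 9.24% elsewhere.

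Protein genes supplied 95.7% ± 0.564 of the mitochondrial reads (SD, n = 15), rRNA genes 3.56% ± 0.491 and tRNA genes 0.694% ± 0.339. The libraries were made from RNA selected on its poly(A) tail. Levels of all members, rRNAs and tRNAs included, are therefore those of the molecules that passed this selection, not of the mature pools. Levels of different genes are compared as CPM (reads of a gene per M reads of its library) per kb of gene length, after scaling of the libraries by the trimmed mean of M-values (TMM).

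Complex IV, cytochrome c oxidase, which passes electrons to oxygen, led the mitochondrial genome. Its 3 subunits coded there took 68.8% ± 1.26 of mitochondrial reads (SD, n = 15), in a range of 67.2% to 71.1%. The catalytic subunit mt-co1 had 11242 ± 1512 CPM per kb and mt-co3 had 10582 ± 2562 (SD, n = 15 each), with mt-co1 above mt-co3 in 10 of 15 libraries and a difference within the spread. The copper-binding subunit mt-co2 had 4724 ± 2077 CPM per kb, below mt-co3 in 15 of 15 libraries. Thus 1 of the 3 subunits of this complex, all copied from the same strand, stood below the others per kb.

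Below them lay the ATP synthase subunit mt-atp6 with 3315 ± 696 CPM per kb, cytochrome b of complex III (mt-cyb) with 2163 ± 405, and the complex I subunits mt-nd2 with 1764 ± 286, mt-nd1 with 1322 ± 188 and mt-nd3 with 1217 ± 318 (SD, n = 15 each). The other complex I subunits followed with 998 ± 187 CPM per kb for mt-nd4, 839 ± 159 for mt-nd6, 572 ± 77.8 for mt-nd5 and 562 ± 112 for mt-nd4l. In the order of the 13 protein genes, 5 of 12 neighbouring pairs stood further apart than the larger of their SDs: mt-co3 and mt-co2, mt-atp6 and mt-cyb, mt-nd2 and mt-nd1, mt-nd6 and mt-nd5, and mt-nd4l and mt-atp8. In each of these the gene named first was higher in 15 of 15 libraries. The differences of the other neighbours lay within the larger SD across libraries, a measure that ignores that both genes come from the same libraries. Within libraries, mt-cyb still lay above mt-nd2 in 14 of 15 and mt-nd4 above mt-nd6 in 13 of 15. The remaining neighbours kept their order in 8 to 12 of 15. The small ATP synthase subunit mt-atp8 was far below, with 64.6 ± 16.9 CPM per kb. Its reading frame shares 7 bases with that of mt-atp6, and vertebrates carry both on 1 mRNA, yet mt-atp6 held 53.1 ± 12.5 times as many reads per kb (SD, n = 15). How reads over shared bases, or reads reaching past the end of a gene, were counted is not given in the sources used here. mt-nd4l and mt-nd4 also share 7 bases. As mt-atp8 spans only 165 bases, its level per kb may depend on that counting, as may those of the short tRNA genes, which was not tested.

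The small-subunit rRNA mt-rnr1 had 763 ± 193 CPM per kb and the large-subunit rRNA mt-rnr2 had 458 ± 98.4 (SD, n = 15 each). Their ratio per kb ranged from 0.972 to 2.71 between libraries. Of the tRNA genes, 19 had mean levels between 0.776 and 59.7 CPM per kb. The lowest of these were trnT, the threonine tRNA, with 11 reads over all libraries and none in 9 of them, and trnV, the valine tRNA, with 21 reads in all and none in 7. At so few reads, no difference between groups was detectable.

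The asparagine tRNA trnN and the cysteine tRNA trnC stood apart from the other tRNAs. In the authors' tables trnN lies on the minus strand of chromosome MT at positions 6178 to 6250 and trnC on the same strand at 6283 to 6354, and the genome build is not given in the sources used here. In vertebrates the origin of light-strand replication lies between these tRNAs, and the gap between them here was 32 bases. Level per kb was 2611 ± 1718 CPM for trnC and 1021 ± 636 CPM for trnN (SD, n = 15 each), against at most 59.7 for the 19 others. Together they held 74.7% to 94.0% of all tRNA reads. In each of the 15 libraries trnC had more reads than trnN, with a ratio of 2.53 ± 0.531 (SD, n = 15). Reads of a gene and of the precursor copied from the opposite strand cannot be told apart, since the strand option of the counting is not given. This concerns genes of both strands, among them trnN, trnC, mt-nd6 and the other 5 minus-strand tRNAs.

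**Figure D1:**
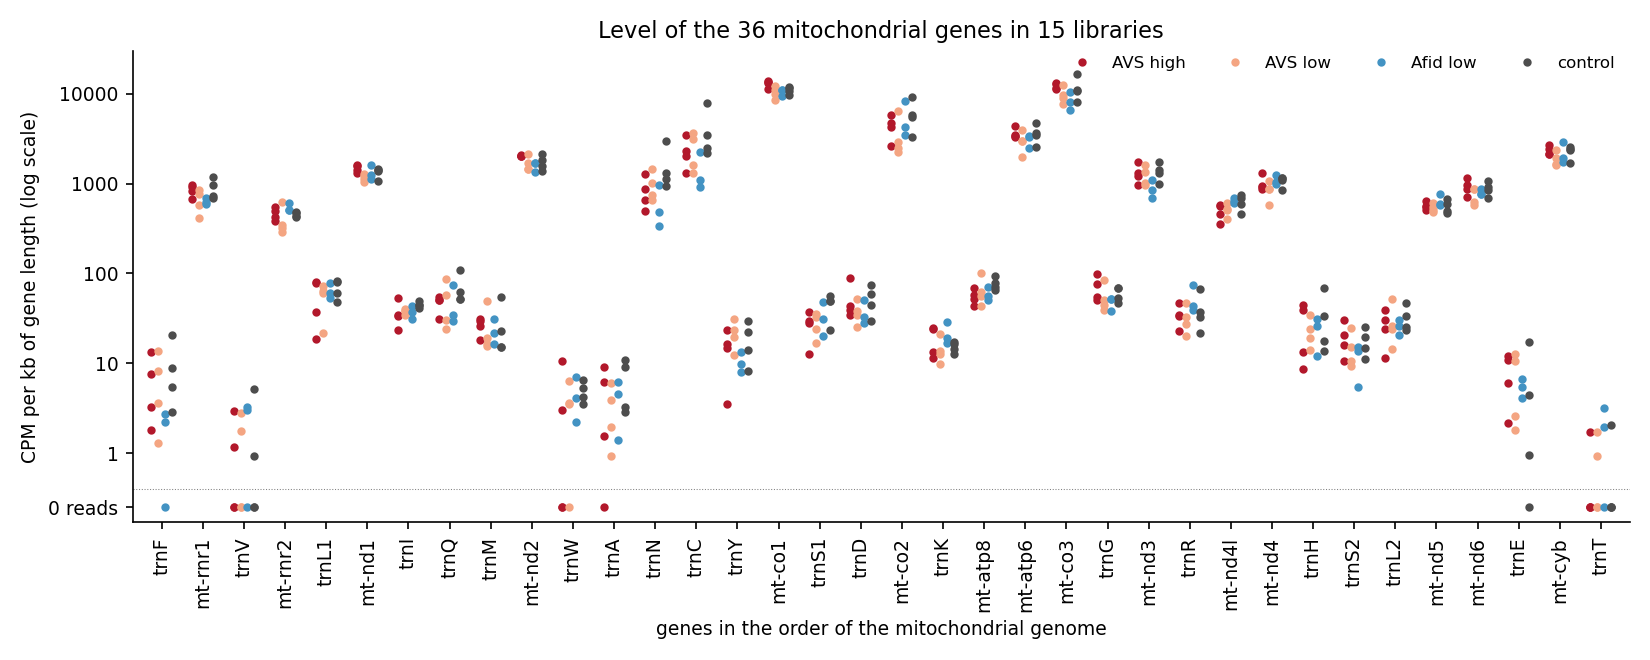
Level of each of the 36 mitochondrial genes in 15 libraries, in CPM per kb of gene length on a log axis, with genes in genome order and 1 point a library coloured by group. Points under the dotted line had 0 reads. mt-co1 and mt-co3 are highest, and trnN and trnC lie near the protein genes, far above the other tRNAs.

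The members differed in how steady they were. The CPM of mt-co1, mt-nd5 and mt-nd1 varied least over all libraries, with coefficients of variation of 13.4%, 13.6% and 14.2%. Among protein genes mt-co2 varied most (44.0%), with 1569 to 6265 CPM. The tRNAs trnC and trnN varied by 65.8% and 62.2%, and control replicate 4 was the highest library and Afid low replicate 4 the lowest for both.

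The share of reads from the mitochondrial genome was first compared with the control, by exact two-sided permutation tests on the difference of means. In AVS high it was 4.82%, 4.55%, 3.84% and 4.13%. In AVS low it was 3.84%, 3.23%, 4.57% and 3.83%, and in Afid low 4.73%, 4.20% and 3.91%. In the control it was 3.70%, 4.59%, 4.53% and 4.42%. All ranges overlapped.

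The means were 4.34% ± 0.435 in AVS high (SD, n = 4), 3.87% ± 0.549 in AVS low (SD, n = 4), 4.28% ± 0.417 in Afid low (SD, n = 3) and 4.31% ± 0.411 in the control (SD, n = 4). The differences from the control were 0.027 percentage points in AVS high (exact p = 0.943), −0.440 in AVS low (exact p = 0.343) and −0.030 in Afid low (exact p = 0.914). The AVS low difference was −0.227 without AVS low replicate 2, and −0.674 without AVS low replicate 4. The smallest p these designs allow is 0.0286. The signs for AVS high and Afid low turned when single libraries were left out. With all libraries, no difference exceeded the larger SD of its groups, though that of AVS low exceeded the SD of the control. In bulk RNA of whole larvae, fewer cells rich in mitochondria and less mitochondrial RNA per cell cannot be told apart.

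**Figure D2:**
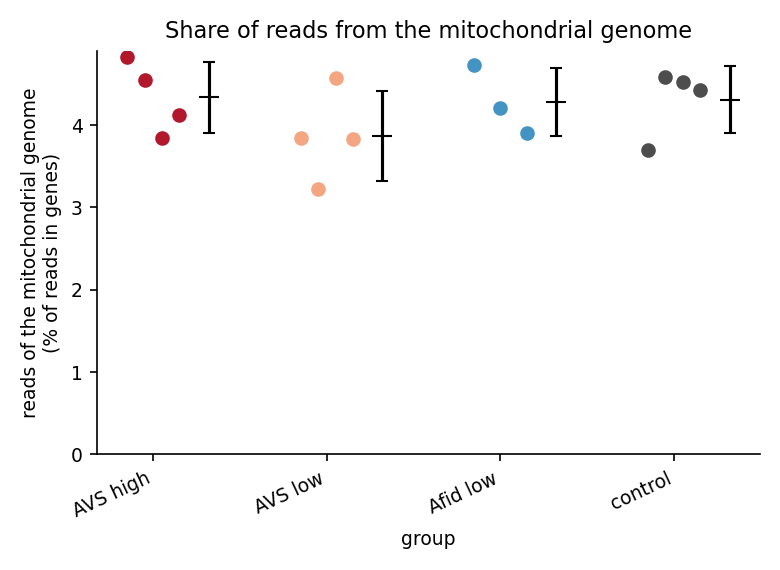
Share of reads in genes that came from the mitochondrial genome, in percent, with 1 point a library, and the mean and SD of each group beside the points. Each exposed group overlaps the control, and the lowest library, 3.23%, belongs to AVS low.

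Single members were then tested with edgeR's quasi-likelihood test over all genes, adjusted by Benjamini-Hochberg and called at 0.05. Between 30 and 32 members passed the filter on low counts in each comparison, among them all 13 protein genes and both rRNA genes. By edgeR no member and no other gene passed in AVS high, AVS low or Afid low against the control, in AVS high against AVS low or in AVS low against Afid low (0% of the genes tested in each). At an unadjusted p under 0.05 the members counted 2 of 30 in AVS high (8.75% of all genes tested), 0 of 30 in AVS low (10.1%), 4 of 30 in Afid low (7.05%), 0 of 32 in AVS high against AVS low (5.44%) and 0 of 32 in AVS low against Afid low (6.73%). DESeq2 also called no member, while it called 61 genes (0.368%) in AVS high, 43 (0.213%) in AVS low, 15 (0.0743%) in Afid low, 5 (0.0249%) between the AVS doses and 0 (0%) in AVS low against Afid low. The exposures share the same 4 control libraries, so their values against the control are given side by side and are not independent.

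In AVS high the protein genes were spread around 0: 8 of 13 had a log2 fold change above 0 and 5 below, with a median of 0.03, beside −0.001 over all 18929 genes tested. The highest was mt-co1, with 20374, 21296, 17459 and 21077 CPM in AVS high, against 14796, 16775, 18234 and 17919 CPM in the control. Of the AVS high libraries, 3 stood above every control library and the remaining one did not, and the log2 fold change was 0.25 ± 0.20 (SE, edgeR adjusted p = 0.732). The complex I subunit mt-nd2 followed with 0.24 ± 0.18 (SE, edgeR adjusted p = 0.705), and mt-nd1 with 0.15 ± 0.17 (SE).

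The lowest protein gene in AVS high was mt-atp8, with 11.3, 9.37, 8.67 and 7.17 CPM in AVS high, against 11.5, 12.8, 10.9 and 15.5 CPM in the control. Only AVS high replicate 1 reached the control range, and the log2 fold change was −0.48 ± 0.22 (SE, unadjusted p = 0.047, adjusted p = 0.569 by edgeR). It was −0.38 without control replicate 4. mt-co2 was at −0.44 ± 0.30 (SE), which was −0.15 without control replicate 2 and −0.28 without AVS high replicate 4. mt-nd4l was at −0.34 ± 0.20 (SE), while mt-nd3, mt-nd4, mt-nd5, mt-nd6, mt-cyb, mt-atp6, mt-co3 and both rRNAs lay between −0.08 and 0.07.

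In AVS low all 13 protein genes had a log2 fold change below 0, with a median of −0.25, beside −0.01 over all 19267 genes tested, of which 50.8% lay below 0. None passed even at an unadjusted p under 0.05, and the genes are copied as shared precursors, so 13 directions are not 13 independent results. Without control replicate 4 the median was −0.11 with 10 of 13 below 0, and without AVS low replicate 2, which had the lowest mitochondrial share, it was −0.17, also with 10 of 13 below 0. Of these 2 libraries, control replicate 4 moved the median further.

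The value furthest from 0 in AVS low was that of mt-co2. It had 1706, 2002, 4389 and 1569 CPM in AVS low, against 2263, 6265, 3786 and 3954 CPM in the control. Of the AVS low libraries, 3 lay below every control library, and AVS low replicate 4 lay above 3 of them. The log2 fold change was −0.75 ± 0.37 (SE, unadjusted p = 0.066, adjusted p = 0.509 by edgeR), −1.21 without AVS low replicate 4 and −0.46 without control replicate 2.

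Of complex I, mt-nd4 was at −0.33 ± 0.22, mt-nd4l at −0.29 ± 0.19, mt-nd6 at −0.27 ± 0.20, mt-nd1 at −0.19 ± 0.18 and mt-nd3 at −0.14 ± 0.22 (SE) in AVS low. Cytochrome b was at −0.27 ± 0.22, mt-atp6 at −0.27 ± 0.26, mt-co3 at −0.25 ± 0.28 and mt-atp8 at −0.23 ± 0.26 (SE). Values near 0 were those of mt-co1 (−0.07), mt-nd5 (−0.04) and mt-nd2 (−0.04), among them the 2 steadiest members. The rRNAs lay at −0.45 ± 0.25 for mt-rnr1 and −0.20 ± 0.24 for mt-rnr2 (SE).

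In Afid low the protein genes had a median of −0.12, beside 0.01 over all 19399 genes tested, with 10 of 13 below 0. Without Afid low replicate 4 the median was 0.01 with 6 of 13 below 0, and without control replicate 4 it was −0.002 with 7 below 0. The 4 members with an unadjusted p under 0.05 all had lower levels in Afid low, beside 3.46% of all genes tested with such a p and a lower level. They were the tRNAs trnN and trnC, mt-nd3 and mt-rnr1.

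The complex I subunit mt-nd3 had 386, 300 and 245 CPM in Afid low, against 346, 499, 455 and 612 CPM in the control. Afid low replicate 1 lay inside the control range and the other 2 below it. The log2 fold change was −0.61 ± 0.23 (SE, unadjusted p = 0.020, adjusted p = 0.688 by edgeR), and −0.46 (unadjusted p = 0.048) without control replicate 4. The other complex I subunits lay between −0.13 and 0.22, the upper end being mt-nd5. Of the remaining protein genes mt-co3 was at −0.45 ± 0.29, mt-atp8 at −0.37 ± 0.21 and mt-atp6 at −0.21 ± 0.24 (SE), while mt-co2, mt-co1 and mt-cyb lay between −0.12 and −0.03.

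The 2 rRNAs, neighbours on 1 precursor, had opposite signs in Afid low. mt-rnr1 had 591, 658 and 558 CPM in Afid low, against 653, 911, 696 and 1128 CPM in the control, a log2 fold change of −0.48 ± 0.22 (SE, unadjusted p = 0.049, adjusted p = 0.700 by edgeR). mt-rnr2 had 855, 848 and 1015 CPM in Afid low, against 709, 818, 785 and 740 CPM in the control, a log2 fold change of 0.26 ± 0.17 (SE, adjusted p = 0.732 by edgeR). For mt-rnr2 every Afid low library lay above every control library, though the test was not passed. Without control replicate 4 mt-rnr1 was at −0.30 (unadjusted p = 0.120). Whether the 2 rRNAs differed from each other in their response was not tested.

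Groups without overlap were rare among the members: 0 of 30 in AVS high against the control (5.19% of all genes tested), 1 of 30 in AVS low (4.35%), 1 of 30 in Afid low (8.91%), 1 of 32 in AVS high against AVS low (2.03%) and 0 of 32 in AVS low against Afid low (7.44%). Besides mt-rnr2 these were the isoleucine tRNA trnI, lower in AVS low at a mean of 2.78 CPM, against 3.33 CPM in the control, and mt-nd1 between the AVS doses. These shares of the members lay near or below those of all genes.

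The tRNAs trnN and trnC had log2 fold changes below 0 in every exposure. For trnN the libraries had 36.3, 62.8, 94.1 and 47.8 CPM in AVS high, 105, 74.6, 48.5 and 54.9 CPM in AVS low and 69.6, 35.5 and 24.9 CPM in Afid low, against 68.0, 95.2, 81.8 and 219 CPM in the control. The exposed ranges all overlapped that of the control, whose replicate 4 lay above every other library. The log2 fold change of trnN was −0.94 ± 0.36 in AVS high (SE, unadjusted p = 0.021, adjusted p = 0.515), −0.71 ± 0.35 in AVS low (SE, unadjusted p = 0.062, adjusted p = 0.501) and −1.42 ± 0.43 in Afid low (SE, unadjusted p = 0.0065, adjusted p = 0.688), all by edgeR. With that library left out, these values were −0.45, −0.20 and −0.90, the last with an unadjusted p of 0.015. Other libraries left out moved trnN further from 0: −1.25 in AVS high without AVS high replicate 3, −0.97 in AVS low without AVS low replicate 1, and −1.94 in Afid low without Afid low replicate 1.

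For trnC the libraries had 147, 168, 251 and 93.3 CPM in AVS high, 263, 228, 116 and 94.4 CPM in AVS low and 162, 78.6 and 66.5 CPM in Afid low, against 158, 247, 178 and 570 CPM in the control. Again control replicate 4 lay above every other library. The log2 fold change of trnC was −0.81 ± 0.38 in AVS high (SE, adjusted p = 0.578), −0.72 ± 0.41 in AVS low (SE, adjusted p = 0.543) and −1.48 ± 0.45 in Afid low (SE, unadjusted p = 0.0066, adjusted p = 0.688), all by edgeR. Leaving out that library, it was −0.25, −0.14 and −0.90. It was −1.09 in AVS high without AVS high replicate 3, −0.99 in AVS low without AVS low replicate 1, and −1.99 in Afid low without Afid low replicate 1. Across all libraries the shares of mitochondrial reads of trnN and trnC moved together, a relation chosen after the values had been seen. On log2 values Pearson r was 0.92 (permutation p = 1e-05, the smallest these permutations can give, n = 15). Spearman rho was 0.94 (permutation p = 1e-05). Pearson r was 0.86 without the 2 libraries furthest from the median and 0.88 on values centred on group means. Given that choice, these p-values are descriptive.

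Of the other tRNAs that passed the filter, 13 did so in all 5 comparisons: trnL1 and trnL2 (leucine), trnI (isoleucine), trnQ (glutamine), trnM (methionine), trnY (tyrosine), trnS1 and trnS2 (serine), trnD (aspartate), trnK (lysine), trnG (glycine), trnR (arginine) and trnH (histidine). Their mean levels ran from 1.13 CPM for trnS2 to 4.60 CPM for trnL1, that is 224 to 919 reads over all libraries. None reached an unadjusted p under 0.05 in a comparison. With so few reads, small differences were not detectable at this depth. Of the 15 tRNAs tested, trnN and trnC included, 11 had a log2 fold change below 0 in AVS high (50.2% of all genes tested), 14 in AVS low (50.8%) and 13 in Afid low (49.2%), all against the same 4 control libraries. Without control replicate 4 these were 9 of 15, 11 of 16 and 10 of 15.

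**Figure D3:**
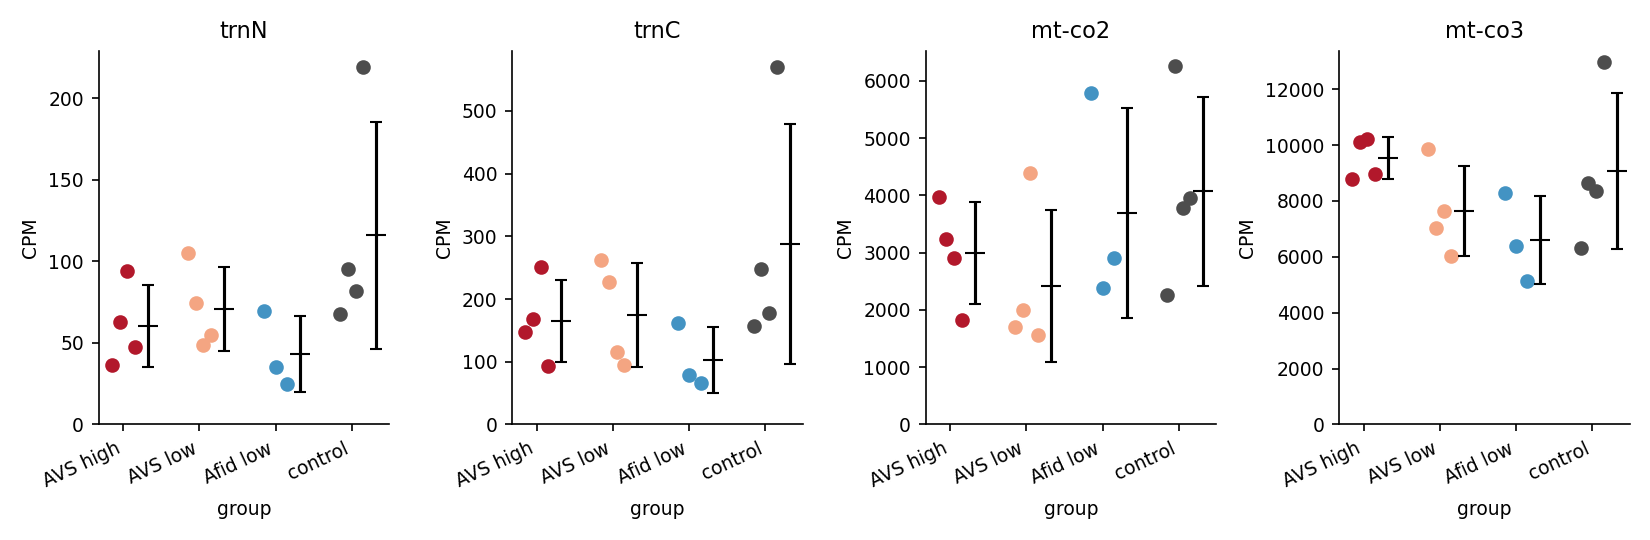
CPM of trnN, trnC, mt-co2 and mt-co3 in each library by group, with the mean and SD of each group beside the points. Control replicate 4 is the highest point for trnN (219 CPM), trnC (570 CPM) and mt-co3 (12975 CPM). Each exposed group overlaps the control in every panel.

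For Afid high, the authors' deposited table lists all 36 members. It calls 9 genes at an adjusted p under 0.05, which is 0.322% of the 2797 genes with an adjusted p under 1, and all 9 are lower. Of the 25853 genes in the authors' deposited table, 7.03% had an unadjusted p under 0.05. Of the 36 members, 16 had an adjusted p under 1 in the authors' deposited table, and an adjusted p of 1, which it writes for 89.2% of genes, was read as not given.

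The member called in the authors' deposited table was trnN, which fell in Afid high with a log2 fold change of −1.48 (p = 5.87e-06, adjusted p = 0.0164). Next in the authors' deposited table came trnC with −1.39 (adjusted p = 0.126), mt-rnr2 with 0.49 (adjusted p = 0.134) and mt-co3 with −0.50 (adjusted p = 0.196). The authors' deposited table gives −0.42 for mt-nd3 (adjusted p = 0.318) and −0.41 for mt-rnr1 (adjusted p = 0.369). In all, 6 members had an unadjusted p under 0.05 in the authors' deposited table. The median of the 13 protein genes in the authors' deposited table was −0.14, with 12 of 13 below 0, beside 0.03 over all its genes. No value per library was used for Afid high, so the part of control replicate 4 in these values of the authors' deposited table could not be measured.

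**Figure D4:**
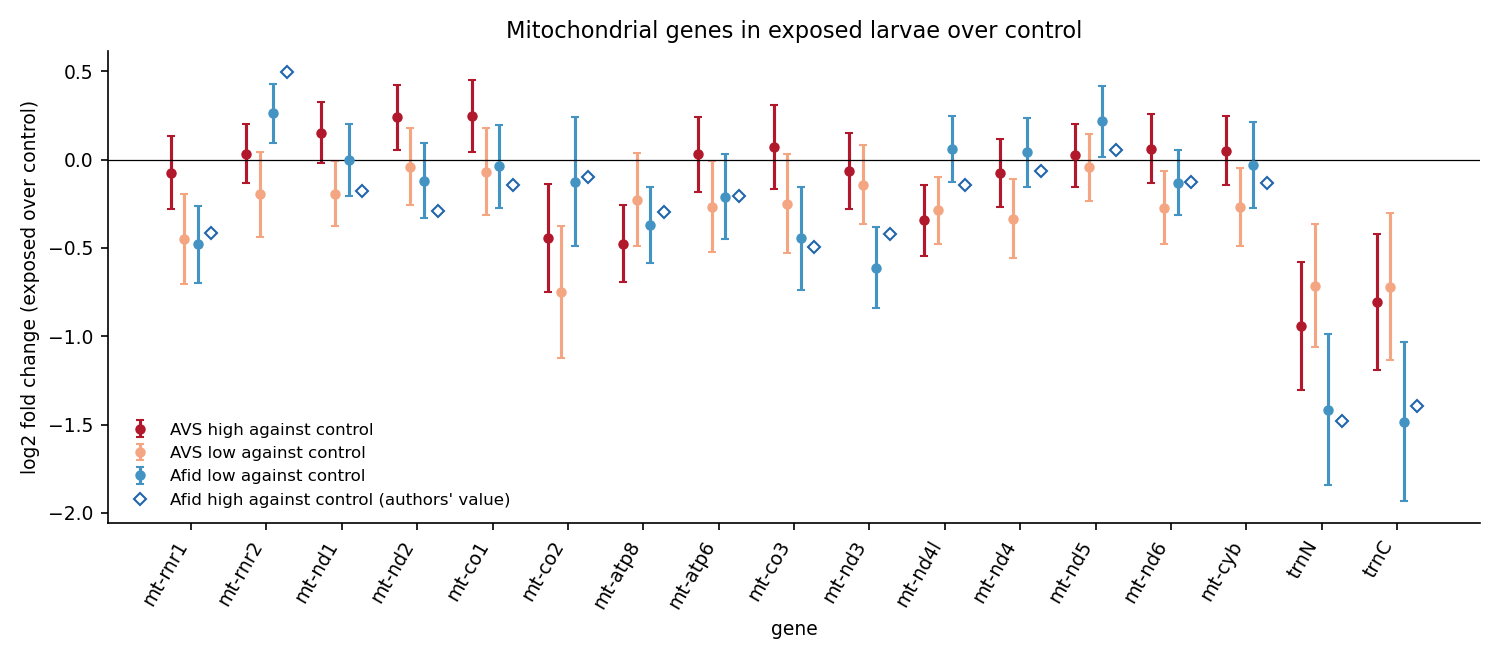
Log2 fold change over the control for the 13 protein genes, both rRNAs, trnN and trnC, with SE bars from edgeR for both AVS doses and Afid low, and the values of the authors' deposited table, which have no SE, for Afid high. trnN and trnC lie lowest in AVS high, Afid low and Afid high, and mt-co2 lies lowest in AVS low.

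Between the doses of atorvastatin, AVS high was above AVS low for 11 of 13 protein genes, with a median log2 fold change of 0.29, beside 0.01 over all 20144 genes tested. mt-nd1 had 1563, 1514, 1291 and 1391 CPM in AVS high, against 1249, 1009, 1195 and 1089 CPM in AVS low. The groups did not overlap for this gene, and the log2 fold change was 0.34 ± 0.16 (SE, unadjusted p = 0.051, adjusted p = 0.918 by edgeR). mt-nd6 (0.33 ± 0.19), mt-co3 (0.32 ± 0.23), mt-cyb (0.32 ± 0.20), mt-co1 (0.31 ± 0.18), mt-atp6 (0.29 ± 0.22), mt-nd2 (0.28 ± 0.18) and mt-nd4 (0.25 ± 0.20) had like values (log2 fold change ± SE). mt-co2 was at 0.31 ± 0.36 (SE), which was 0.16 without AVS high replicate 1, 0.14 without AVS low replicate 1, 0.15 without AVS low replicate 5 and 0.78 without AVS low replicate 4 (unadjusted p = 0.036, adjusted p = 0.838 by edgeR). mt-nd3 was at 0.08, mt-nd5 at 0.07, mt-nd4l at −0.06 and mt-atp8 at −0.25. The rRNAs were at 0.37 ± 0.22 for mt-rnr1 and 0.23 ± 0.21 for mt-rnr2 (SE).

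At the matched dose of 100 ng/L, AVS low was compared with Afid low, 2 compounds of unrelated use. The median of the protein genes was −0.13, beside 0.03 over all genes tested, with 9 of 13 lower in AVS low. The lowest was mt-co2 at −0.61 ± 0.39 and the highest mt-nd3 at 0.48 ± 0.24 (SE), while mt-rnr2 was at −0.45 ± 0.23, trnN at 0.71 ± 0.41 and trnC at 0.77 ± 0.45 (SE). Single libraries moved these values: mt-co2 was −0.16 without Afid low replicate 1 and −1.09 without AVS low replicate 4 (unadjusted p = 0.0078, adjusted p = 0.209 by edgeR). mt-nd3 was 0.30 without AVS low replicate 1, and mt-rnr2 was −0.78 without AVS low replicate 4 (adjusted p = 0.118 by edgeR). With single libraries left out trnN lay between 0.43 and 1.19, and trnC between 0.48 and 1.22, in both cases highest without Afid low replicate 1. With all libraries, the adjusted p-values of members were at least 0.693 by edgeR. The approximate 95% interval of the difference for mt-co1, of −0.40 to 0.37, covers differences of that size in either direction, and is somewhat too narrow at so few libraries.

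No gene of the nuclear partner lists was called by edgeR. Of 78 nuclear subunits of complexes I, III, IV and V tested in Afid low, 77 had a log2 fold change below 0, with a median of −0.51, beside 49.2% of all genes tested below 0. Of the 78, 31 had an unadjusted p under 0.05 and a lower level, beside 3.46% of all genes tested. By complex, 14 of 33 of complex I, 2 of 8 of complex III, 7 of 19 of complex IV and 8 of 18 of complex V had such a p and a lower level. Without control replicate 4 the median was −0.32 and 15 of 78 had such a p, beside 3.03% of all genes. The cytosolic ribosomal protein genes had 72 of 75 log2 fold changes below 0 in Afid low, with a median of −0.57, and −0.32 without control replicate 4. Of these 75 genes, 26 had an unadjusted p under 0.05 and a lower level. The part of the ribosomal protein genes in the other values was not tested.

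Of these subunits in Afid low, NDUFA13 of complex I, named in capitals in the tables, had 6.20 CPM in Afid low, with an SD of 0.947 over 3 libraries, against 19.1 CPM in the control, with an SD of 5.07 over 4, and a log2 fold change of −1.62 ± 0.25 (SE, adjusted p = 0.338 by edgeR). The complex III subunit uqcrq was at −1.99 ± 0.52, the complex V regulator atp5if1a, an inhibitor of reverse ATP synthase activity, at −1.06 ± 0.28, and the complex IV subunit cox8a at −0.70 ± 0.28 (SE, adjusted p = 0.688 each by edgeR). For Afid high, the authors' deposited table gives a log2 fold change below 0 for all 35 listed nuclear subunits of complex I and all 19 of complex IV, for 8 of 9 of complex III and for 18 of 19 of complex V, none of them called. Of all genes in the authors' deposited table, 46.9% lay below 0. Its cytosolic ribosomal protein genes had 74 of 77 values below 0, with a median of −0.57, and 5 of them were called lower.

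In AVS high 59 of 78 nuclear subunits tested had a log2 fold change below 0, beside 50.2% of all genes tested. Their median was −0.16, and 7 had an unadjusted p under 0.05 and a lower level. This turned without control replicate 4, where the median was 0.04 with 37 of 79 below 0. In AVS low 71 of 80 were below 0, beside 50.8% of all genes tested, with a median of −0.35. Of the 80, 12 had such a p, beside 4.97% of all genes. Without control replicate 4 the median was −0.10 and 4 of 80 had such a p, beside 936 of all 19596 genes tested, a share near that of the subunits. In AVS high 5.39% of all genes tested had an unadjusted p under 0.05 and a lower level. The cytosolic ribosomal protein genes had 55 of 75 values below 0 in AVS high, with a median of −0.19, and 6 with such a p and a lower level. In AVS low they had 72 of 75 below 0, with a median of −0.43, and 15 with such a p and a lower level. Control replicate 4 entered both comparisons, with 10.9% of reads in these genes, against 6.64%, 8.90% and 7.42% in the other control libraries.

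Genes that maintain and read mitochondrial DNA gave few such values in the comparisons with the control, where 8.75% of all genes tested had an unadjusted p under 0.05 in AVS high, 10.1% in AVS low and 7.05% in Afid low. In AVS low tfam, which packages the mitochondrial genome and starts its transcription, averaged 10.17 ± 2.46 CPM, against a control mean of 17.2 ± 4.51 CPM (SD, n = 4 each), with a log2 fold change of −0.76 ± 0.24 (SE, unadjusted p = 0.0084, adjusted p = 0.464 by edgeR). The RNase rnaseh1 was at −0.53 ± 0.20 (SE) in AVS low, and these 2 were the only ones of 9 replication and maintenance genes with an unadjusted p under 0.05 there. In Afid low the mitochondrial topoisomerase top1mt was the only one of 9, at −0.53 ± 0.23 (SE), and in AVS high none of 9 had such a p. Apart from tfam, which was counted with the replication and maintenance genes, 6 transcription factors and terminators were tested, including the RNA polymerase. None of these 6 had such a p in any of these comparisons with the control.

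Among 26 RNA processing genes tested in each comparison with the control, 3 had an unadjusted p under 0.05 in AVS high, 2 in AVS low and 1 in Afid low, counts near the shares of all genes (8.75%, 10.1% and 7.05%). In AVS high these were slirp, a partner of the mRNA stabiliser LRPPRC, at −0.85 ± 0.31, elac2, which cuts the 3′ ends of tRNAs, at 0.39 ± 0.16, and the RNA-binding protein fastkd2 at 0.43 ± 0.18 (SE, edgeR adjusted p at least 0.492). In AVS low they were the RNA granule protein grsf1 at −0.59 ± 0.23 and fastk at 0.38 ± 0.17, and in Afid low the pseudouridine synthase trub2 at −0.60 ± 0.21 (SE). Of 13 mitochondrial tRNA synthetases, 1 had such a p against the control, the arginyl-tRNA synthetase rars2 in Afid low at −0.57 ± 0.22 (SE). Of the mitochondrial translation factors, the release factor mtrf1 was the only one against the control, in Afid low at −0.62 ± 0.24 (SE, adjusted p = 0.688 by edgeR).

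Among 10 regulators of mitochondrial biogenesis, 2 had an unadjusted p under 0.05 in each comparison with the control. Over all genes tested, 8.75% had such a p in AVS high, 10.1% in AVS low and 7.05% in Afid low. The share of the regulators was above these, but rests on 2 genes in each comparison. ppargc1b, a coactivator of respiratory genes, was at −0.34 ± 0.14 and the deacetylase sirt1 at 0.31 ± 0.14 in AVS high (SE). The GABP subunit gabpb1 was at −0.47 ± 0.20 in AVS low and −0.75 ± 0.27 in Afid low (SE), where yy1a was at −0.34 ± 0.15, and the deacetylase sirt3 was at −0.46 ± 0.21 in AVS low (SE). Of 16 tested genes of mitochondrial import, chaperones and outer-membrane channels, 1 had an unadjusted p under 0.05 in AVS high (tomm20a, −0.72 ± 0.22), 1 in AVS low (timm23a, −0.41 ± 0.14) and 2 in Afid low (hspe1, −0.62 ± 0.22, and vdac1, −0.42 ± 0.17; log2 fold change ± SE). None of these genes was called.

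Whether the mitochondrial share moved with other features of the libraries was asked in 4 relations over the 15 libraries. It had Pearson r = 0.56 with the share of skeletal muscle markers (permutation p = 0.0312, adjusted p = 0.125; Spearman rho = 0.54, permutation p = 0.0428, adjusted p = 0.133), with r = 0.50 without the 2 libraries furthest from the median and r = 0.45 on values centred on group means. With the number of reads r was −0.42 (rho = −0.45), with the ribosomal protein share 0.33 (rho = 0.44) and with the nuclear respiratory share 0.12 (rho = 0.12), with adjusted permutation p-values of r of 0.248, 0.306 and 0.676 and of rho of 0.133, 0.133 and 0.675. None of the 4 passed the threshold after adjustment.

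Within the mitochondrial reads, the shares of some members did move with the ribosomal protein share or the nuclear respiratory share. The share of each of 30 members in the mitochondrial reads, which does not depend on library scaling, was set against the ribosomal protein share and the nuclear respiratory share, 61 relations with that of trnN and trnC, chosen after the values had been seen. By Pearson r, 11 passed an adjusted permutation p of 0.05, and by Spearman rho 5 did, in both cases with that of trnN and trnC among them. Most of the 61 did not pass.

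The share of mt-co1 was lower where ribosomal protein genes took more reads, with r = −0.83 (permutation p = 0.00012, adjusted p = 0.0023) and rho = −0.82 (adjusted permutation p = 0.0069; n = 15). It was 47.0% of mitochondrial reads in AVS high replicate 4, the highest library, and 34.8% in control replicate 4, the lowest. Without the 2 libraries furthest from the median r was −0.71, and on values centred on group means −0.88. The share of mt-nd1 followed with r = −0.67, though r was −0.44 without the same 2 libraries and by rho its adjusted permutation p was 0.110.

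The shares of mt-co3 and trnC went the other way. All these shares are parts of the same total, which ties them to each other. The part of this in the values of mt-co3 and trnC was not tested. The ribosomal protein share and the nuclear respiratory share were also both highest in control replicate 4 (10.9% and 1.21%). These relations are therefore not independent of each other. mt-co3 had 15.1% of mitochondrial reads in Afid low replicate 4, the lowest library, and 25.2% in control replicate 4, the highest. It had r = 0.90 with the nuclear respiratory share (permutation p = 2e-05, adjusted p = 0.00061) and rho = 0.88 (adjusted permutation p = 0.0012; n = 15). Without the 2 furthest libraries r was 0.82, and centred on group means it was 0.92. trnC had r = 0.82 (adjusted permutation p = 0.0023) and rho = 0.78 (adjusted permutation p = 0.0146) with the same share, trnN had r = 0.74 (adjusted permutation p = 0.0175) and rho = 0.70 (adjusted permutation p = 0.0506), and mt-rnr2 had r = −0.72 (adjusted permutation p = 0.0206) and rho = −0.71 (adjusted permutation p = 0.0498). The ribosomal protein share also had r of 0.77 with trnC, 0.72 with mt-co3, 0.69 with mt-rnr1 and 0.66 with trnN, none of which passed by rho. Without the 2 furthest libraries these r were 0.65, 0.61, 0.43 and 0.61. In the same setting the nuclear respiratory share had r of 0.68 with trnC, 0.51 with trnN and −0.60 with mt-rnr2. The part of RNA quality and of the make-up of the larvae in these relations was not tested.

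**Figure D5:**
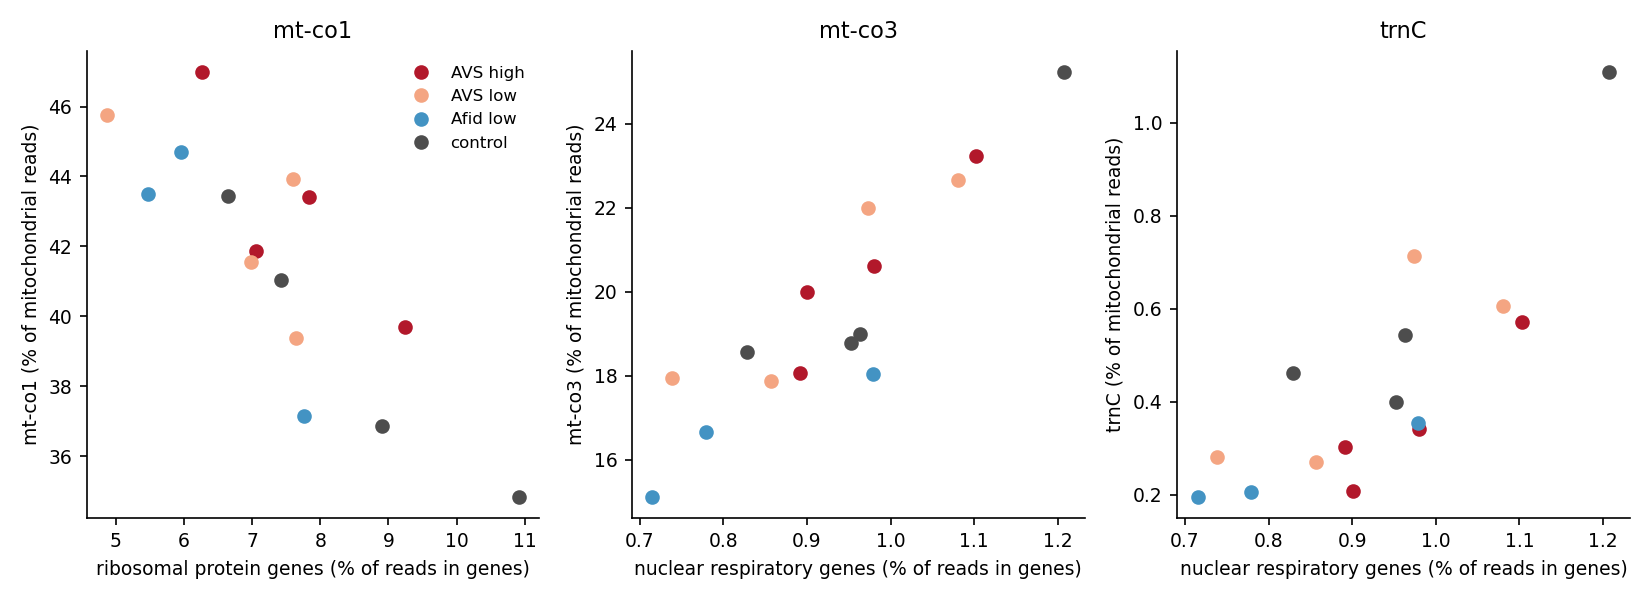
Share of mitochondrial reads from mt-co1 against the ribosomal protein share, and from mt-co3 and trnC against the share of nuclear respiratory complex genes, all in percent, with 1 point a library coloured by group. mt-co1 lies between 34.8% and 47.0% and is lowest where the ribosomal protein share is highest, while mt-co3 lies between 15.1% and 25.2% and trnC is highest in control replicate 4.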

How the data were processed

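Per the labels' protocols, RNA of whole larvae was extracted with TRIzol, selected on poly(A) and made into directional libraries. Per the submitters' processing notes, the authors used fastp, HISAT2, featureCounts and DESeq2, with versions and strand option not given in the sources used here. No source used here names the genome build. The deposited tables with counts are 3, per the file headers, and hold raw read counts per gene, each with the same 4 control libraries, and all 4 deposited tables hold the authors' log2 fold changes, p-values and adjusted p-values. A further 46 columns of per-sample values were not used.

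Members were the genes on chromosome MT. All 36 matched a RefSeq gene (GRCz12tu table) by start, end and type, which gave the tRNA and rRNA names. The RefSeq table lists 37, and the remaining tRNA gene is not analysed here. Matches of reads to near-identical nuclear copies of mitochondrial DNA cannot be told apart in these counts.

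Each exposure was compared with the control on its own table by edgeR 4.0.16 (R 4.3.3; TMM, filterByExpr, quasi-likelihood test, Benjamini-Hochberg adjustment). Exposures were compared with each other in 1 fit of the 15 libraries. SE was taken from edgeR's F statistic, by dividing the absolute log2 fold change by the root of F. The approximate 95% interval of a log2 fold change is 1.96 SE to each side, a normal approximation that is too narrow at so few libraries. DESeq2 1.42.0 was an alternative, as were scaling without mitochondrial genes, no filter, leaving out each library and a replicate block. CPM values use TMM factors of all 15 libraries. The script was tested on simulated data. Correlations used 100000 permutations. Named were all protein and rRNA genes, tRNAs that passed the filter, and up to 4 genes of smallest p from each nuclear list. Members, lists and tests were chosen with earlier results of these data known. The labels give no batch. Whether replicate numbers pair the libraries was not settled, as described under the closing limits. No libraries of a group were duplicates: the smallest chi-square per degree of freedom over 21 pairs was 7.43.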

Additional observations from a re-analysis of the deposited data

Results flagged for a closer look

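Of 93 groups of 4 libraries checked (30 members and the mitochondrial share), 6 had 1 library apart from the other 3 by a gap past Dixon's 95% critical value, and chance gives about 1 in 20. In AVS high, replicate 1 was apart for mt-atp6, with 2977 CPM, against 2280 to 2360 CPM in the other 3, and for mt-nd4, with 1811 CPM, against 1204 to 1307 CPM. In AVS low, replicate 4 was apart for mt-co2, with 4389 CPM, against 1569 to 2002 CPM, and replicate 1 for trnM, with 3.41 CPM, against 1.06 to 1.31 CPM. In the control, replicate 1 was apart for mt-nd4, with 1185 CPM, against 1527 to 1595 CPM, and for mt-cyb, with 1908 CPM, against 2723 to 2884 CPM.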

How the results depend on the processing

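No member was called in any of the 63 fits, which were the main one and its alternatives (DESeq2, scaling without mitochondrial genes, no filter on low counts, the replicate block, each library left out) in 5 comparisons. Of 1044 log2 fold changes of single genes, or medians of the protein genes, under an alternative, 973 kept their direction and 71 turned, 66 of these with 1 library left out. Scaling without mitochondrial genes turned none. The number of genes called was 0 by edgeR in each comparison, but DESeq2 called 61 in AVS high, 43 in AVS low, 15 in Afid low and 5 between the AVS doses, edgeR without the filter called 2 in AVS high, and leaving out single libraries gave 0 to 1 in Afid low (1 without control replicate 4). The difference in mitochondrial share of AVS high, 0.027 percentage points, was −0.022 with ribosomal protein genes left out of the total, and −0.176 to 0.191 with single libraries left out. That of Afid low, −0.030, was 0.043 within replicate numbers (replicate block), the same value as without control replicate 3, which has no partner there. It was −0.255 to 0.157 with single libraries left out. Block fits against the control left out libraries without a same-numbered partner: AVS low replicate 5 and control replicate 3 in AVS low, and control replicate 3 in Afid low. In the block fits, log2 fold changes turned for mt-nd5 (0.024, against −0.045 in the main fit) and mt-nd2 (0.058, against −0.041) in AVS low, mt-nd1 (0.023, against −0.0028) in Afid low, mt-nd3 between the AVS doses (−0.0013, against 0.076), and mt-co1 in AVS low against Afid low (0.0010, against −0.016). With no block, mt-nd2 in AVS low was 0.026 without AVS low replicate 5. Likewise mt-nd1 in Afid low was 0.031 without control replicate 3, so block and left-out libraries cannot be told apart there. Whether replicate numbers pair the libraries was not settled. Deviations from the group means correlated by over 0.1 in 2 of 16 same-numbered pairs (−0.36 to 0.20), a measure too weak to decide it at so few libraries. The block added no call, and as edgeR called no gene without it, none could be lost. In AVS low, 1949 of 19267 genes had an unadjusted p under 0.05 in the main edgeR fit. In the block fit, which held fewer libraries, 422 of 19288 did. With single libraries left out, log2 fold changes in AVS high ranged over −0.061 to 0.28 for mt-co3, −0.059 to 0.17 for mt-nd6, −0.061 to 0.10 for mt-cyb, −0.17 to 0.083 for mt-rnr1, −0.057 to 0.10 for mt-rnr2, −0.041 to 0.11 for mt-nd5, −0.098 to 0.18 for mt-atp6 and −0.25 to 0.070 for mt-nd3. In AVS low they ranged over −0.30 to 0.0044 for mt-nd3, −0.15 to 0.016 for mt-co1, −0.12 to 0.061 for mt-nd5 and −0.17 to 0.088 for mt-nd2. In Afid low they ranged over −0.21 to 0.013 for mt-nd2, −0.61 to 0.16 for mt-co2, −0.096 to 0.017 for mt-co1, −0.064 to 0.17 for mt-nd4l, −0.29 to 0.096 for mt-cyb, −0.073 to 0.099 for mt-nd4 and −0.17 to 0.090 for mt-nd1. Between the AVS doses they ranged over −0.41 to 0.019 for mt-atp8, −0.11 to 0.22 for mt-nd3, −0.16 to 0.044 for mt-nd4l, −0.51 to 0.0028 for trnN and −0.35 to 0.16 for trnC. In AVS low against Afid low they ranged over −0.062 to 0.15 for mt-nd2, −0.13 to 0.067 for mt-co1, −0.16 to 0.32 for mt-atp8, −0.22 to 0.11 for mt-atp6 and −0.14 to 0.20 for mt-rnr1. The median of the 13 protein genes ranged over −0.061 to 0.10 in AVS high and −0.21 to 0.0078 in Afid low. The cause of these changes was not tested. Alternatives for the medians, tRNA counts and nuclear lists, and the relations to composition, were chosen after the data had been seen. Outside trnN and trnC, the tRNAs had a few CPM, so small differences in them were not detectable at this depth.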
